A study of Homo sapiens with 6 samples.

Results

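Giant cytoskeletal linker genes are genes of the nesprin, spectraplakin, plakin, spectrin and dystrophin families, whose very long proteins tie actin, microtubules or intermediate filaments to membranes. All peaks assigned by the authors to SYNE1, SYNE2, DST, MACF1, PLEC, SPTBN1 or UTRN were taken, which are 7 of the 16810 genes with a peak in the series. The genes were selected on their measured peak counts, SYNE1 for the most peaks found with DMSO alone and DST for the most found with FB23-2 alone, so those counts are given as a description. Peaks were N6-methyladenosine (m6A) peaks from methylated RNA immunoprecipitation sequencing, in which an antibody pulls down fragments of poly(A) RNA that carry m6A. MHCC97H, a human hepatocellular carcinoma cell line, was exposed for 48 h to 2 µM FB23-2, an inhibitor of the m6A demethylase FTO (3 samples), or to the DMSO vehicle (3 samples). The stated purpose was to find what FB23-2 acts on through FTO. Each treatment has 1 deposited peak list with no columns per sample, 41838 peaks with FB23-2 and 42813 with DMSO. No list therefore has a replicate, the read depth is unknown, and no difference between the treatments was tested. Expression levels are not in these lists, so the identity of the cells was not checked against liver markers, and whether RNA levels of these genes differed between treatments was not tested.

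Nesprins, encoded by SYNE1 and SYNE2, sit in the outer nuclear membrane and connect the nucleus to the cytoskeleton through long rods of spectrin repeats. Spectraplakins, encoded by DST and MACF1, bind actin at one end and microtubules at the other, while plectin (PLEC) anchors intermediate filaments at junctions and hemidesmosomes. Nonerythrocytic beta-spectrin (SPTBN1) forms the lattice under the plasma membrane, and utrophin (UTRN) is the widely expressed relative of dystrophin. All of these genes make many transcripts from several start sites, and m6A in long internal exons is known in human messenger RNA beside the better known enrichment near stop codons.

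Several annotated start sites inside the genes lay within the genomic span of a peak, introns included, and the sequences at 4 of them are given. Which exons a peak covers is not known here, so a start within a span need not be covered by the peak. RefSeq start windows (GRCh38.p14) ran from 250 bases before an annotated start to 30 bases after it, and 17 were found for 6 of the genes. The start lay inside peaks of both lists in 3 windows, inside a DMSO peak alone in 3 and in no peak in 11. The 30 transcribed bases are in capitals below, 5′ to 3′. The MACF1 and SPTBN1 starts lay in peaks of both lists, and the UTRN and SYNE2 starts in DMSO-only peaks.
MACF1 chr1:39408823-39409102 (plus strand): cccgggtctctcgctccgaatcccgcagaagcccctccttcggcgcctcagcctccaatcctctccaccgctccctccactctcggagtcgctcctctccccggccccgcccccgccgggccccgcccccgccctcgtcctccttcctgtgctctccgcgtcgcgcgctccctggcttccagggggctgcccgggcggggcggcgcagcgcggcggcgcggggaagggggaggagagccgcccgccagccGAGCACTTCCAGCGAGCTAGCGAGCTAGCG
SPTBN1 chr2:54558133-54558412 (plus strand): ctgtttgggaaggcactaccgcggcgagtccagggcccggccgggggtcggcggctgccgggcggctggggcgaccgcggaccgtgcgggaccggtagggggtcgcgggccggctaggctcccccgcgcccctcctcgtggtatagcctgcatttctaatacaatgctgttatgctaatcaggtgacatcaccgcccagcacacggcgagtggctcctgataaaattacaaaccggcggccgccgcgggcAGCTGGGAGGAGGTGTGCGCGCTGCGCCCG
UTRN chr6:144582898-144583177 (plus strand): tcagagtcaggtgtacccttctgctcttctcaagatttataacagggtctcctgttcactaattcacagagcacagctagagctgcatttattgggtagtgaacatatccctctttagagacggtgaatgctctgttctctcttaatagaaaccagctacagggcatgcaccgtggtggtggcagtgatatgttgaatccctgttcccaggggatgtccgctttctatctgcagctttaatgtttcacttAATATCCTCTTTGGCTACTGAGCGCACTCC
SYNE2 chr14:64213894-64214173 (plus strand): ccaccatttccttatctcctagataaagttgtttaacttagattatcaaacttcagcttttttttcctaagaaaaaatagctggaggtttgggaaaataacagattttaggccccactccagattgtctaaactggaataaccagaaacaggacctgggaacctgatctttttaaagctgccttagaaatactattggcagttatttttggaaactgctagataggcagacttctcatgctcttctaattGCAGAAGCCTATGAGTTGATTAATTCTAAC
The MACF1 and SPTBN1 windows were rich in G and C, at 76.4% and 69.3% of bases, while the UTRN and SYNE2 windows held 46.1% and 36.4%. The median over all 35116 RefSeq windows was 58.2%. The letters GGACT, a common core of m6A sites, were searched on both strands and were present in 5 of the 17 linker windows and in 41.6% of all windows. A match is a description of the letters and not a modified site.

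Peaks of the lists were set against each other on the same strand. Those overlapping a peak of the other list over 50% or more of whichever was shorter count as shared, and the rest as list-only. The linker genes had 113 peaks in the FB23-2 list and 115 in the DMSO list, so their total hardly differed. FB23-2-only peaks numbered 22 of 113, or 19.5% (exact binomial 95% interval 12.6% to 28.0%), beside 17.3% of all FB23-2 peaks. DMSO-only peaks numbered 38 of 115, or 33.0% (24.6% to 42.4%), beside 20.1% of all DMSO peaks. The FB23-2-only share lay near that of the whole list, and the DMSO-only share lay above it. These intervals cover the counting of peaks only, and neighbouring peaks of one transcript are not independent. Without SYNE1 and DST, the remaining 5 genes had 7 FB23-2-only peaks of 69 (10.1%, 4.18% to 19.8%) and 20 DMSO-only peaks of 71 (28.2%, 18.1% to 40.1%). All 7 genes were chosen with earlier results of these data known, so these shares and intervals describe a selected set and test nothing. Leaving out SYNE1 and DST does not remove that choice. In the whole series, 2 genes had more DMSO-only peaks than SYNE2, and 12 had more than MACF1 or UTRN. Reading by gene, FB23-2-only peaks outnumbered DMSO-only peaks in DST alone. The overlap rule mattered: where 50% of both peaks had to overlap, 60 FB23-2 (53.1%) and 62 DMSO linker peaks (53.9%) were list-only, beside 34.1% and 35.6% of all peaks, so that the shares of the lists were nearly equal. Where each list was held to the same number of most significant peaks, 10 of 77 FB23-2 (13.0%) and 30 of 84 DMSO linker peaks (35.7%) were list-only, beside 13.8% and 14.8% of all peaks.

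**Figure D1:**
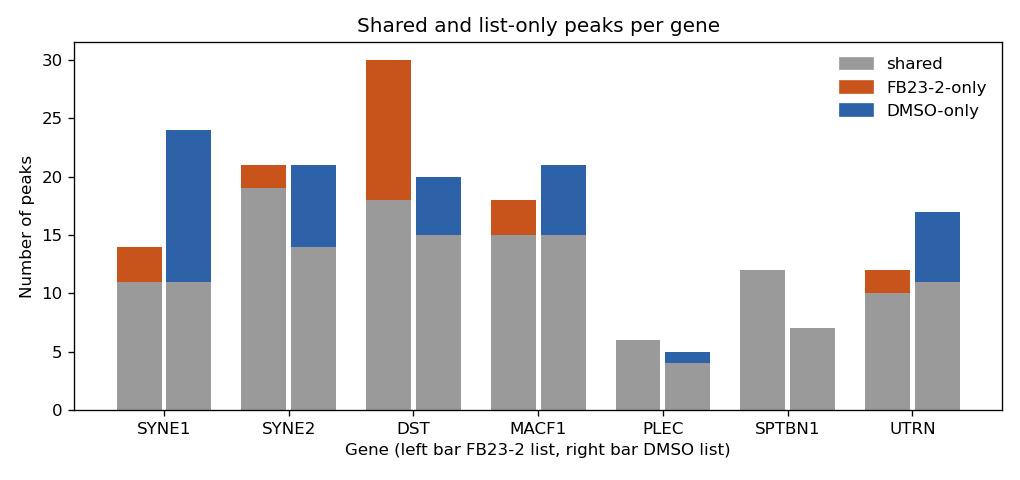
Number of m6A peaks (vertical axis) in each of the 7 linker genes, with the FB23-2 list as the left bar and the DMSO list as the right bar of each pair. Grey is shared, orange FB23-2-only and blue DMSO-only; DST reaches 30 peaks with FB23-2 and SYNE1 24 with DMSO.

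**Figure D2:**
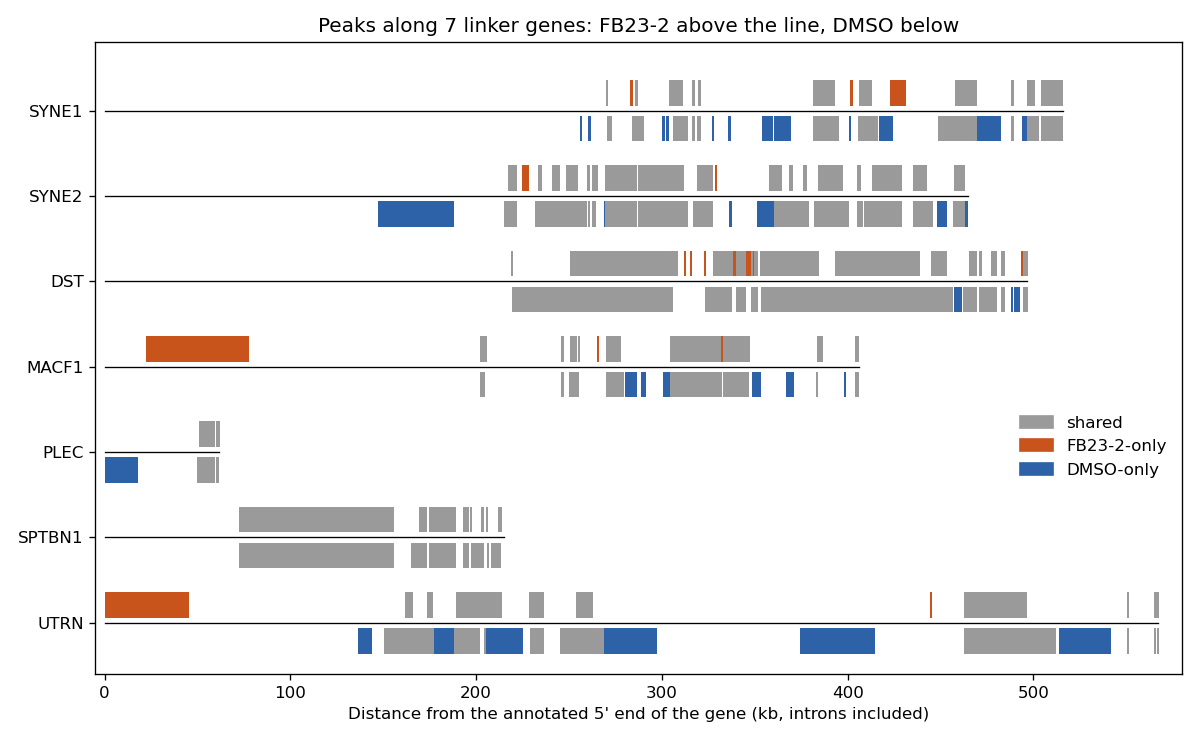
Peaks drawn along each gene as distance from its annotated 5′ end (kb, introns included), FB23-2 above the line and DMSO below, with peaks under 1.2 kb widened so that they can be seen. Most peaks of both lists sit in the 3′ part of the genes; the orange blocks near the 5′ ends of MACF1 and UTRN and the blue block at the 5′ end of PLEC have no counterpart.

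SYNE1 (ENSG00000131018), which encodes nesprin-1, lies on the minus strand of chromosome 6 and is 516 kb long. It had 14 peaks in the FB23-2 list, of which 3 were list-only, and 24 in the DMSO list, of which 13 were list-only. No gene had more DMSO-only peaks, and 1 other gene had as many. Neither list placed a peak near the 5′ end: the first began 271 kb into the gene with FB23-2 and 257 kb into it with DMSO. The 3′-most peak, at chr6:152121684-152133580 in the 3′ UTR, had identical borders in the FB23-2 and the DMSO list, where its log2 fold was 2.95 with FB23-2 and 3.28 with DMSO. ESR1, the oestrogen receptor gene on the other strand, overlaps 7936 bases of it. The next strongest shared peak lay nearer the middle of the gene, at chr6:152326314-152334126 with FB23-2 (log2 fold 2.25) and at chr6:152323620-152331884 with DMSO (2.46). The log2 fold is the authors' own value per peak and is read as immunoprecipitate over input, which the table does not state.

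All 13 DMSO-only peaks of SYNE1 were annotated to coding exons, and their log2 folds were low, between 0.78 and 1.18. They were spread from chr6:152141321-152143788 near the 3′ end to chr6:152381187-152381286, where the annotated antisense RNA SYNE1-AS1 overlaps the gene. The longest spanned 12781 bases and the shortest 100. A neighbouring pair, chr6:152268167-152277639 (log2 fold 1.08) and chr6:152277965-152284150 (1.18), lay 11483 and 21281 bases from the nearest FB23-2 peak, in a stretch where the FB23-2 list had none. All 3 FB23-2-only peaks of SYNE1 touched a DMSO peak without reaching the overlap needed: 18.8% at chr6:152206308-152215022 (log2 fold 1.25), 23.7% at chr6:152234693-152236298 (1.03) and 25.5% at chr6:152353378-152354771 (0.93). Counted by any overlap, SYNE1 had 0 FB23-2-only and 11 DMSO-only peaks, and with equal numbers of top peaks it had 2 and 7.

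SYNE2 (ENSG00000054654), which encodes nesprin-2 on the plus strand of chromosome 14, had 21 peaks in each list. Of these 2 were FB23-2-only and 7 DMSO-only. The strongest peak started at the same base in both lists: chr14:64049135-64065526 with FB23-2 (log2 fold 2.95) and chr14:64049135-64075780 with DMSO (2.86). The DMSO peak ran across the stretch that the FB23-2 list gave as that peak and a further one, chr14:64065577-64074027. Another DMSO peak, chr14:63993847-64021411 (log2 fold 1.42), covered 3 FB23-2 peaks whose log2 folds were 0.71, 1.33 and 0.72. Peaks named to the 3′ UTR of transcript ENST00000674144 numbered 8 with FB23-2 and 6 with DMSO, and all had their centres 40% to 80% of the way along the gene.

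The longest DMSO-only peak of any linker gene was in SYNE2, at chr14:63909124-63949866 (40743 bases, log2 fold 0.90), with no FB23-2 peak within 29012 bases. At the 3′ end, chr14:64209837-64212909 (log2 fold 1.11), chr14:64212935-64215308 (1.12) and chr14:64225807-64226056 (0.64) were DMSO-only. The SYNE2 start window printed above lies in the second of these 3. Both FB23-2-only peaks were weak, with log2 folds of 0.92 at chr14:63986563-63990555 and 0.84 at chr14:64090888-64091012. The DMSO-only peak chr14:64113109-64122321 came close to being shared, with 40.1% overlap, while its neighbour chr14:64122397-64128505 passed at 69.0%.

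DST (ENSG00000151914), which encodes dystonin, had 30 peaks with FB23-2 and 20 with DMSO on the minus strand of chromosome 6. FB23-2-only peaks numbered 12 and DMSO-only peaks 5, and no gene had more FB23-2-only peaks. With equal numbers of top peaks the counts were 5 and 4, and with overlap of 50% of both peaks 21 and 11. The 2 sets lay apart along the gene: 11 of the 12 FB23-2-only peaks were centred 60% to 80% of the way from its 5′ end and all 5 DMSO-only peaks beyond 80%. Of the 12, 10 spanned under 300 bases. Among shared DST peaks the highest log2 fold was in a long one: chr6:56645993-56704285 with FB23-2 (log2 fold 3.08) against chr6:56648598-56735198 with DMSO (3.14), the longest peak of all at 86601 bases.

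The FB23-2-only peaks of DST included a cluster of 5 in coding exons named to transcript ENST00000361203, at chr6:56605648-56608772. From the 5′ side, 3 short peaks lay 25 bases apart, at chr6:56608648-56608772 (log2 fold 3.21), chr6:56608398-56608622 (2.46) and chr6:56608198-56608372 (2.09). They were followed by chr6:56607173-56607347 (log2 fold 1.67) and chr6:56605648-56605747 (2.69). All 5 were 250 to 875 bases from the nearest DMSO peak. Peaks named to this transcript at chr6:56602909-56608772 included 2 shared FB23-2 peaks, chr6:56605973-56606447 (log2 fold 2.34) and chr6:56602909-56605047 (2.66). The 4 DMSO peaks there were all shared and lay within chr6:56603307-56606422, with log2 folds of 2.36, 2.09, 1.93 and 0.97. The stretch thus carried peaks with both treatments, and among peaks named to this transcript those of FB23-2 reached farther towards the 5′ end. Still farther 5′, 475 bases from the cluster, the DMSO list had a shared peak named to another transcript, chr6:56609248-56614899 (log2 fold 1.53). The FB23-2-only cluster thus lay between DMSO peaks. Summed spans of the peaks named to ENST00000361203 were 3414 bases with FB23-2 and 968 bases with DMSO. Of the FB23-2 sum, 2139 bases were the shared peak chr6:56602909-56605047, which overlapped 3 DMSO peaks.

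The other 7 FB23-2-only peaks of DST were weaker, with log2 folds of 0.70 to 1.30. A group of 3 lay at chr6:56615075-56616224, between shared peaks, and 3 more at chr6:56631293-56642305. Of these, chr6:56631293-56631885 began 25 bases from the end of a DMSO peak. The 12th lay at chr6:56460575-56460699 (log2 fold 1.02). It was annotated as intronic, as were chr6:56639045-56639219 (0.76) and chr6:56642206-56642305 (0.70) among the 3 before it. DMSO-only peaks of DST had log2 folds between 0.81 and 1.34, and 4 of the 5 lay together at chr6:56462050-56466334.

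**Figure D3:**
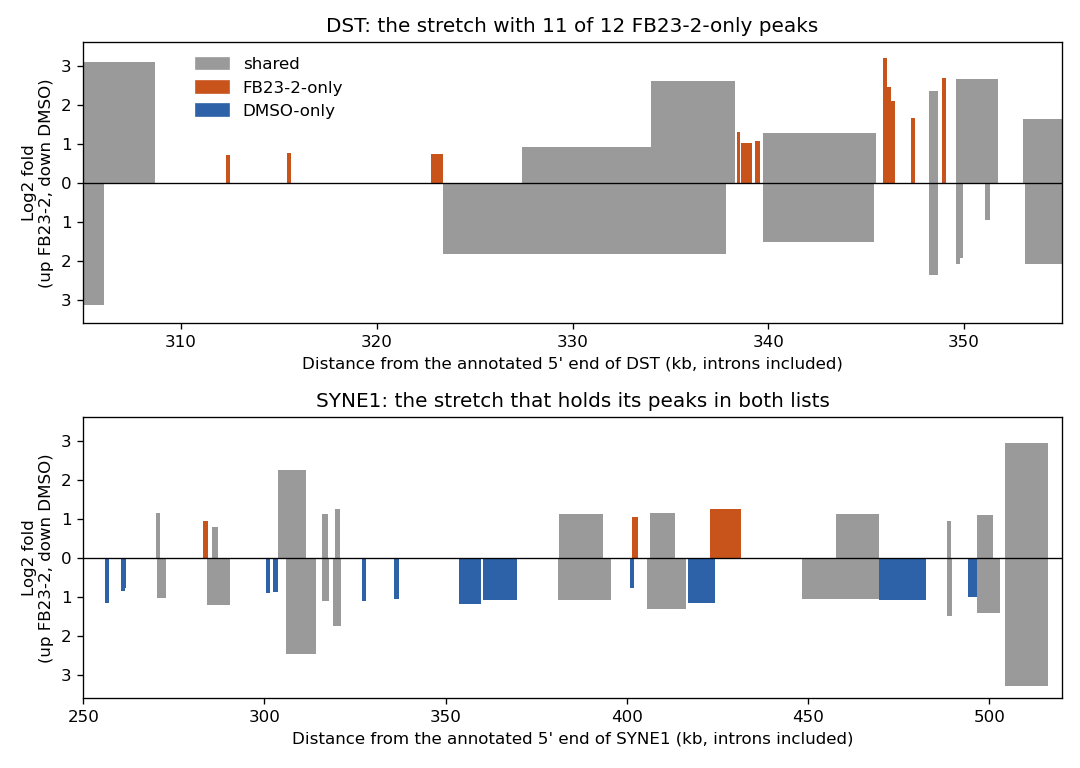
Deposited log2 fold of each peak (vertical axis; up for FB23-2, down for DMSO) against distance from the 5′ end of the gene (kb, introns included) for part of DST, above, and of SYNE1, below. In DST, orange FB23-2-only bars of up to 3.21 stand next to grey shared peaks at 345.9 to 351.7 kb; in SYNE1 the blue DMSO-only bars stay between 0.78 and 1.18.

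MACF1 (ENSG00000127603), the other spectraplakin, lies on the plus strand of chromosome 1 and had 18 peaks with FB23-2 and 21 with DMSO, 3 and 6 of them list-only. It held the strongest peak of the linker genes in both lists, chr1:39385827-39413289 with FB23-2 (log2 fold 4.01) and chr1:39385627-39413414 with DMSO (3.82). The borders of that peak differed by 200 and 125 bases, and the MACF1 start printed above lies inside it. A block of peaks named to the 3′ UTR of transcript ENST00000673926, inside the gene, was also common to both: 4 peaks with FB23-2 (log2 folds 1.70 to 2.66) and 5 with DMSO (0.92 to 2.43).

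The FB23-2-only peak of MACF1 with the highest log2 fold (2.47) was also the longest list-only peak of the 7 genes. It spanned 55280 bases at chr1:39103718-39158997, in the first 20% of the gene, where the DMSO list had no peak within 125116 bases. Its adjusted p, as deposited, was 3.4e-12, and 59.2% of the FB23-2 list had a smaller one. The 6 DMSO-only peaks of MACF1 were all exonic, with log2 folds of 0.86 to 1.05. Among them, chr1:39430042-39434426 (log2 fold 1.05) and chr1:39448088-39452642 (0.92) had the smallest adjusted p-values of all list-only linker peaks, with 27.0% and 31.5% of the DMSO list having a smaller one.

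PLEC (ENSG00000178209), which encodes plectin on the minus strand of chromosome 8, had 6 peaks with FB23-2 and 5 with DMSO. Every FB23-2 peak was shared and lay in the last 20% of the gene, with log2 folds of 1.59 to 2.76. The strongest was exonic, with a log2 fold of 2.76 with FB23-2 and 2.68 with DMSO. The single DMSO-only peak, chr8:143958792-143976734 (log2 fold 1.48), was annotated to a 5′ UTR and ended at the gene's 5′ end as deposited, 32912 bases from any FB23-2 peak.

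SPTBN1 (ENSG00000115306), on the plus strand of chromosome 2, was the linker gene without a list-only peak, although it had 12 peaks with FB23-2 and 7 with DMSO. Joined by any overlap, the SPTBN1 peaks formed 7 regions that were all present in both lists, and in 4 of these 1 DMSO peak covered several FB23-2 peaks. The strongest was an 83.6 kb peak annotated to the 5′ UTR, chr2:54528625-54612198 with FB23-2 (log2 fold 2.27) and chr2:54528625-54612248 with DMSO (2.33). The annotated antisense RNA SPTBN1-AS1 overlaps 30081 bases of it. Coding-exon peaks had log2 folds of 1.02 to 1.35 with FB23-2. On the opposite strand, at the 3′ end, the DMSO list held 2 peaks that the authors assigned to the noncoding gene AC093110, chr2:54664304-54664403 (log2 fold 0.99) and chr2:54664753-54679834 (0.96), and the FB23-2 list held none there. The second of them overlaps 3′ UTR peaks of SPTBN1, and whether the libraries kept strand information is not given in the sources used here.

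UTRN (ENSG00000152818), on the plus strand of chromosome 6, had 12 peaks with FB23-2 and 17 with DMSO, 2 and 6 of them list-only. No UTRN peak reached a log2 fold of 2 in either list: the highest were 1.40 with FB23-2 and 1.45 with DMSO. One FB23-2-only peak, chr6:144285701-144330852 (45152 bases, log2 fold 1.30), began at the gene start given in the deposited list, downstream of the RefSeq start at 144285335, and the nearest DMSO peak was 91093 bases away. The other, chr6:144730359-144730458, spanned 100 bases (log2 fold 0.83). DMSO-only peaks of UTRN were long, from 7700 to 39913 bases, with log2 folds of 0.94 to 1.32. They included chr6:144554719-144583239 (log2 fold 1.31), which holds the UTRN start printed above, and chr6:144660258-144700170 (1.32). The DMSO-only peak chr6:144491100-144511113 missed the overlap needed with 41.3%, and at chr6:144836364-144836613 a shared one passed with 70%.

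By annotation class, coding exons held 63.7% of the linker peaks with FB23-2 and 67.8% with DMSO, against 12.8% and 12.9% of all peaks. Giant coding genes of other kinds had 47.7% with FB23-2 and 51.0% with DMSO, and the other spectrins, plakins and actinins 47.8% and 54.5%. The 3′ UTR class, which held 57.3% of all peaks in each list, had 27.4% of the linker peaks with FB23-2 and 24.3% with DMSO. The 5′ UTR class had 5.31% and 6.96% of them, and the intronic class 3.54% and 0.870%. Of the intronic peaks, 4 were in the FB23-2 list, all in DST, and 1 was in the DMSO list, in MACF1. The UTR names were often those of transcripts that start or end inside the gene. In the 3′ UTR class, 17 of 31 FB23-2 and 13 of 28 DMSO peaks had their centres outside the last 10% of their gene. Likewise 5 of 6 FB23-2 and all 8 DMSO peaks in the 5′ UTR class had their centres outside the first 10%. The DMSO peak of PLEC is among these 8, although it reached the gene's 5′ end as deposited. Among list-only peaks, 15 of 22 FB23-2-only and 31 of 38 DMSO-only ones were exonic. The counts of peak centres and of exonic list-only peaks were made for linker peaks only. Whether they differ from those of all peaks was not tested.

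By position of the peak centre, the last 20% of the gene length held 47 of 113 FB23-2 peaks and 50 of 115 DMSO peaks. The first 20% held 2 and 1. Between 60% and 80% lay 15 of the 22 FB23-2-only peaks, 11 of them in DST, and 11 of the 38 DMSO-only peaks, none in DST. The last 20% held 3 FB23-2-only and 15 DMSO-only peaks. Without DST, 4 of 10 FB23-2-only and 11 of 33 DMSO-only peaks lay between 60% and 80%. Positions count introns, so they are not positions in the messenger RNA. They were counted for linker peaks only, with no share over all peaks beside them.

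By span, linker peaks were long, in the DMSO list above all. The median was 1877 bases with FB23-2 and 3671 bases with DMSO, while that of all peaks was 575 bases in both lists. Spans over 10 kb made up 16.8% of linker peaks with FB23-2 (19 peaks) and 27.8% with DMSO (32 peaks), against 12.1% and 12.3% of all peaks. Giant coding genes of other kinds had medians of 1275 bases with FB23-2 and 1257 bases with DMSO, with 16.4% and 16.9% of peaks over 10 kb. In the other spectrins, plakins and actinins, 16.4% of peaks with FB23-2 and 14.3% with DMSO spanned over 10 kb. FB23-2-only linker peaks had a median span of 200 bases and DMSO-only ones of 2832.5 bases, against 225 bases for list-only peaks of all genes in either list. Of the 22 FB23-2-only peaks 12 were in DST, and without DST the medians were 1500 bases for FB23-2-only and 3381 bases for DMSO-only peaks. Without SYNE1 and DST they were 250 bases over 7 FB23-2-only peaks and 5675 bases over 20 DMSO-only peaks. Peak spans count introns, so the genomic length within them is not a length of modified RNA. That genomic length was smaller with FB23-2 in 6 of the 7 genes. It was 73.2 kb against 130.4 kb with DMSO in SYNE1, and 132.9 kb against 228.5 kb in SYNE2. It was 179.8 kb against 239.7 kb in DST, 8.78 kb against 28.35 kb in PLEC, 107.3 kb against 123.2 kb in SPTBN1 and 130.0 kb against 258.2 kb in UTRN. MACF1 had 116.7 kb with FB23-2 and 80.9 kb with DMSO, where the single 55280-base peak above is part of the FB23-2 sum. These lengths were summed for the 7 linker genes only, so no share over all genes stands beside the 6 of 7.

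**Figure D4:**
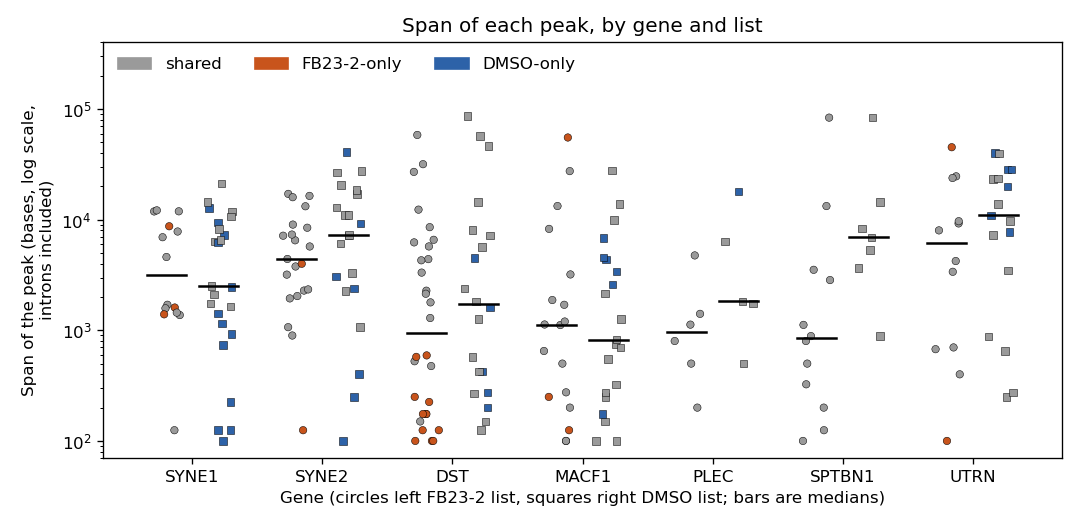
Span of each peak (bases, log scale, introns included) by gene, with circles on the left for the FB23-2 list, squares on the right for the DMSO list and bars at the medians; colours mark shared and list-only peaks. The FB23-2-only peaks of DST lie mostly under 300 bases, and the DMSO-only peaks of UTRN lie between 7700 and 39913 bases.

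Borders showed the same difference between the lists. Of 101 overlapping pairs of an FB23-2 and a DMSO linker peak, the FB23-2 peak lay inside the DMSO peak in 66 (65.3%) and the DMSO peak inside the FB23-2 peak in 14 (13.9%). Over all 38406 overlapping pairs of the lists these shares were 37.8% and 28.8%. Only 1 linker pair had identical borders (0.99%), against 14.4% of all pairs. Joined by any overlap, the linker peaks formed 127 regions, of which 74 (58.3%) held peaks of both lists, 19 FB23-2 peaks alone and 34 DMSO peaks alone. In 16 regions 1 DMSO peak covered several FB23-2 peaks, and in 4 the converse held. Joined regions were counted for the linker genes only, so no share over all genes stands beside these numbers. Of the 38 DMSO-only peaks, 7 lay within 100 bases of a shared DMSO peak of the same gene, and of the 22 FB23-2-only peaks none did. From the nearest peak of the other list, 8 FB23-2-only and 27 DMSO-only peaks were over 1000 bases away. Both distance counts include introns and were made for linker peaks only. No share over all list-only peaks stands beside them.

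By strength, the median log2 fold of linker peaks was 1.13 with FB23-2 and 1.21 with DMSO, below the 1.42 and 1.39 of all peaks. The other genes with at least 10 peaks in either list had medians of 1.23 and 1.18. A log2 fold of at least 2 was reached by 19 FB23-2 (16.8%) and 16 DMSO linker peaks (13.9%), against 30.4% and 29.2% of all peaks. Of these, 5 were FB23-2-only, 4 in DST and 1 in MACF1, and none was DMSO-only: the highest DMSO-only log2 fold was the 1.48 in PLEC. List-only peaks were mostly of low significance. In the 25% of each list with the smallest adjusted p there were 28 FB23-2 and 23 DMSO linker peaks, and none was list-only, beside 0.287% and 0.972% of all peaks there. In the next 25%, 0 of 19 FB23-2 linker peaks and 4 of 23 DMSO ones were list-only, beside 3.92% and 4.91% of all peaks in that range. In the third 25%, 6 of 25 and 13 of 33 were list-only, beside 20.2% and 22.7%. In the 25% with the largest adjusted p these counts were 16 of 41 and 21 of 36, beside 44.7% and 51.8%.

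**Figure D5:**
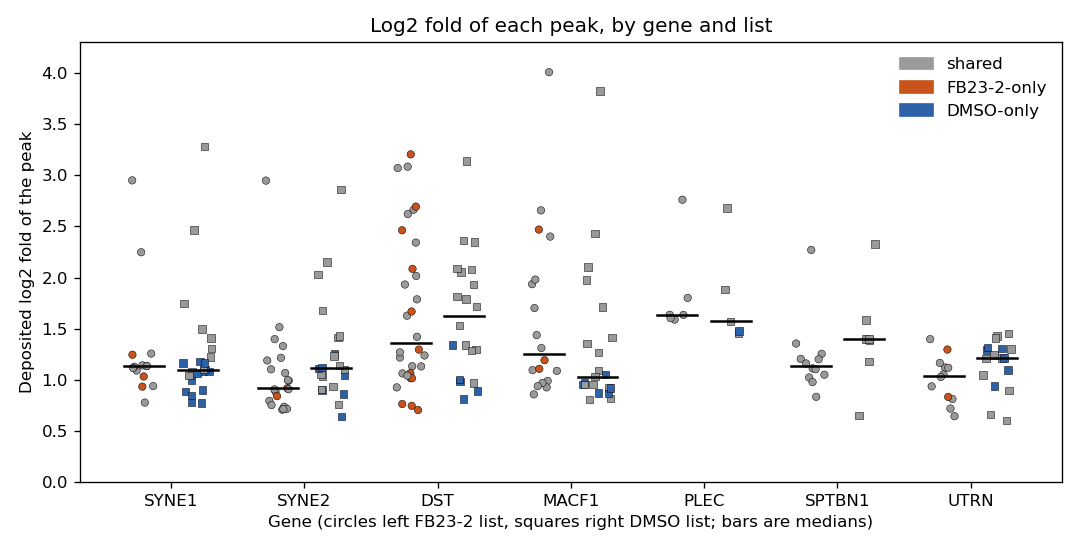
Deposited log2 fold of each peak (vertical axis) by gene, with circles on the left for the FB23-2 list, squares on the right for the DMSO list and bars at the medians; colours mark shared and list-only peaks. The orange FB23-2-only points above 2 are 4 in DST and 1 in MACF1, and the blue DMSO-only points stay at or under 1.48.

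Related genes were counted for comparison. Of 21 other spectrins, plakins and actinins, 17 had a peak in either list and 16 in the FB23-2 and 16 in the DMSO list, with 11 list-only peaks of 67 with FB23-2 (16.4%, 8.49% to 27.5%) and 23 of 77 with DMSO (29.9%, 19.97% to 41.4%). SPTAN1, the alpha-spectrin that pairs with SPTBN1, had 13 peaks in each list, 2 FB23-2-only and 4 DMSO-only, and PPL, encoding periplakin, had 6 with FB23-2 (1 list-only) and 7 with DMSO (3 list-only). Binding partners of the linkers had 18 list-only peaks of 111 with FB23-2 (16.2%) and 22 of 109 with DMSO (20.2%). ANK3, encoding the spectrin-binding ankyrin-G, had 8 peaks with FB23-2 and 9 with DMSO, of which 0 and 1 were list-only. Other giant coding genes had 58 of 287 (20.2%) and 77 of 302 (25.5%), and linkers outside these families 23 of 122 (18.9%) and 23 of 123 (18.7%). All 181 other genes with at least 10 peaks in either list had 21.0% list-only peaks with FB23-2 and 25.2% with DMSO. The DMSO-only share of the linker genes without SYNE1 and DST, 28.2%, lay below the 29.9% of the other spectrins, plakins and actinins.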

How the data were processed

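MHCC97H cells were assayed by m6A immunoprecipitation and input sequencing, per the labels' protocols. HISAT2, Cuffdiff and GRCh38 appear in the submitters' processing notes, with no role. Which peak caller and versions were used, and whether strand was kept, is not given in the sources used here. Each of the 2 deposited peak lists, 1 per treatment, gives per peak the authors' log2 fold, adjusted p-value, position, class and gene, per the file headers. Folds and adjusted p-values served to rank and filter peaks inside 1 list. Deposited starts count from 0 and were made 1-based. Spans include introns.

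Peaks were matched by gene symbol, and positions along a gene use the deposited gene bounds. Peaks were set against the other list with Python 3.11.15, pandas 2.3.3, numpy 2.4.6 and scipy 1.17.1, and figures were drawn with matplotlib 3.10.9. Shares carry Clopper-Pearson 95% intervals. The overlap step was run on a list simulated from the DMSO list by removing peaks and shifting the rest slightly. That run checks the code only, because it did not simulate a long peak broken into several short ones. Samples were grouped by the treatment label. The 7 genes, the 4 comparison lists and the rule for naming genes (all 7, and up to 4 per list with the most peaks, not all printed) were chosen with earlier results of these data known. SYNE1 and DST were chosen for their list-only counts. Alternatives were an adjusted p under 0.001, other overlap rules, a log2 fold of at least 2, no regard to strand, merged peaks, equal numbers of top peaks, exon and UTR peaks, and gene bounds. Joined regions and the count without SYNE1 and DST were alternatives added after seeing the data. Read depth is unknown.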

Additional observations from a re-analysis of the deposited data

How the results depend on the processing

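No paired analysis was possible because the peak lists carry no samples or replicate numbers, and no sample could be left out. The 22 FB23-2-only and 38 DMSO-only peaks stayed within 1.5 times under an adjusted p under 0.001 (22 and 37), any overlap (19 and 34), merged peaks (19 and 29), exon and UTR peaks (20 and 38), ignored strand, gene bounds and joined regions. With overlap of at least 50% of both peaks they were 60 and 62, with SYNE1 and DST moving too: SYNE1 had 5 FB23-2-only peaks, and DST 21 and 11. With a log2 fold of at least 2 in both lists, 6 of 19 FB23-2 (31.6%) and 4 of 16 DMSO linker peaks (25%) were list-only. Beside them, 16.3% of all FB23-2 and 15.2% of all DMSO peaks were list-only. The FB23-2-only share was thus the higher one at this setting, unlike in the main count. That order rested on DST, chosen for its FB23-2-only count, which held 5 of the 6 FB23-2-only peaks. SYNE1 had 0 and 0 list-only peaks there, SYNE2 0 and 2, MACF1 1 and 1, and DST 5 and 1. The DMSO exonic share was 50%, and the last 20% of the genes held 15.8% of FB23-2 peaks. The median span was 4750 bases with FB23-2 and 12897.5 bases with DMSO (median log2 fold 2.66 and 2.36). With equal numbers of top peaks, 10 of 77 FB23-2 and 30 of 84 DMSO linker peaks were list-only, with 7 DMSO-only in SYNE1 and 5 FB23-2-only in DST. By any overlap or joined regions SYNE1 had 0 FB23-2-only peaks. Without SYNE1 and DST, an alternative chosen after seeing the data, the counts were 7 and 20, and 42.9% of FB23-2-only peaks lay between 60% and 80% of the gene length. Without DST alone, also chosen after seeing the data, this share was 40% over 10 peaks, and the median span of FB23-2-only peaks was 1500 bases. The cause of these changes was not tested. Depth is unknown here, so a list-only peak is one that was not called under the other treatment and not one shown to be absent there.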
